A study of Saccharomyces cerevisiae with 12 samples.

Results

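The comparison described here set the transcripts of budding yeast lacking SNF2 against those of yeast lacking SWI1, both grown in minimal medium. It rests on 6 of the 12 arrays of the study, the 3 labelled snf2 minimal medium and the 3 labelled swi1 minimal medium, chosen by their titles. Each two-channel spotted array held RNA of a deletion strain, FY31 for snf2 or YPS1 for swi1, in channel 1 and RNA of the wild-type strain FY2 in channel 2. Both groups thus shared the wild-type strain as partner, and they differed by strain as well as by the deleted gene, since each deletion is represented by a single named strain. The remaining 6 arrays held the same strains in the rich medium YPD. Of these, 4 entered the same fit, where they share the estimate of the spread and show whether a difference depended on the medium, and the other 2, of experiment 1, were not used here. Experiments 2 and 3 shared an array platform and entered the tests (n = 2 arrays per group), and the experiment 1 pair, on another platform, was set beside them. No source used here gives mating type, the genotype at marker genes or the stretch of each gene that was deleted. The sources do not say whether replicate arrays held RNA of different cultures; the p-values then cover no more than the scatter of these hybridisations, which may be technical.

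Snf2 is the ATPase that drives the Snf/Swi nucleosome-remodelling complex, and Swi1 is a subunit of the same complex without catalytic activity that takes part in contacts with gene activators. The complex is brought to promoters by activators, moves or evicts nucleosomes there and is needed for the expression of genes of mating, phosphate, sugar and stress metabolism. Whether loss of the motor and loss of a targeting subunit give the same transcript pattern is the question that this comparison addresses.

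All values below are log2 ratios centred on the median gene of each array, and a difference is the snf2 value minus the swi1 value. Signs are given as mutant over wild type. The labels do not state that direction. It is likely, because the descriptions name FY2 before the mutant and FY2 RNA was the second channel; were it the other way round, every sign given here would turn. Between 7.25% and 11.3% of probes were missing on the 4 tested arrays, and 5123 genes were measured on all 4. The base of the logarithm was supported by the values of the 8 arrays of experiments 2 and 3 but was not settled for experiment 1, whose values are therefore used mainly for their sign.

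No gene differed between the mutants past the test in minimal medium, although many genes read differently from wild type on the arrays of either deletion. Against wild type, limma called 1550 of 5307 genes (29.2%) on the arrays labelled snf2 and 1526 of 5354 genes (28.5%) on those labelled swi1, at a Benjamini-Hochberg adjusted p under 0.05. Between the mutants it called 0 of 5123 genes (0.0%), and the smallest adjusted p was 0.538. At an unadjusted p under 0.05 there were 280 genes (5.47%), of which 110 were higher in snf2 (2.15% of genes tested) and 170 lower (3.32%). Leaving out snf2 minimal replicate 3 gave 18 called genes and leaving out swi1 minimal replicate 2 gave 1, whereas leaving out either other array gave 0. In those fits the lone array is assumed to vary like the other groups.

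The median standard error of a difference was 0.16 on the log2 scale, and the median 95% interval reached 0.39 to either side. For 4652 genes (90.8%) that interval lay within 2-fold either way, and for 2940 genes (57.4%) it lay within 1.5-fold. For the other genes 2 arrays per group leave a 2-fold difference possible. Arrays of different mutants were about as close as arrays of the same mutant. The median absolute difference over genes was 0.15 between the snf2 arrays and 0.18 between the swi1 arrays, and between arrays of different mutants it ranged from 0.13 to 0.21. The closest arrays of all were snf2 and swi1 of experiment 2, which carry different mutants. The experiment 1 pair differed by 0.20, but 5.12% of its genes differed by over 1, against 1.07% to 1.95% for the pairs of experiments 2 and 3. Experiment 1 is on another platform and its log base is not settled, so these sizes may not share a scale.

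**Figure D1:**
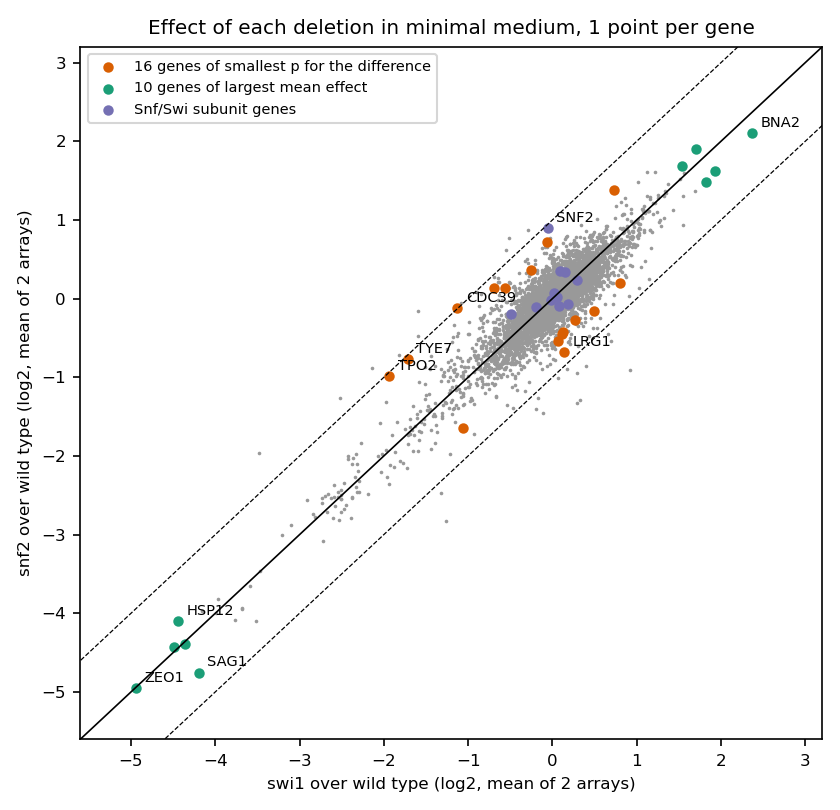
Effect of the SNF2 deletion (y axis) against that of the SWI1 deletion (x axis) in minimal medium, both as log2 mutant over wild type and the mean of 2 arrays, for 5123 genes; the solid line marks equal effects and the dashed lines a difference of 1. Genes follow the solid line from ZEO1 near -5 to BNA2 above 2, and 25 of 5123 genes reach an absolute difference of 1.

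The genes with the strongest responses to either deletion shared their direction. Of the genes tested, 314 were called at 2-fold or more against wild type in at least 1 mutant, and all 314 had the same direction in the other. Over all genes tested, 4145 of 5123 shared their direction. Of the 314, 294 were called in snf2 and 302 in swi1 at any size, so the choice itself favours a common direction. Among them 237 were lower, with medians of -1.40 in snf2 and -1.44 in swi1, and 77 were higher, with medians of 1.10 in both. The interval of the difference lay within 2-fold for 251 of the 314 (79.9%). Both comparisons may share wild-type RNA, which is not given, so the common direction describes these arrays. Every array also held the mutant in channel 1. A difference between the channels can therefore not be told apart from an effect of the deletion in the calls against wild type.

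The 5 genes of lowest mean effect over both mutants fell in each of them. ZEO1, a cell wall stress gene, read -4.69 and -5.22 on the snf2 arrays and -5.06 and -4.83 on the swi1 arrays. These values overlap, and the difference was -0.01 with a 95% interval from -0.45 to 0.44. QDR2, a multidrug transporter of the plasma membrane, read -4.43 and -4.36 in snf2 against -4.54 and -4.18 in swi1, again overlapping, with a difference of -0.03. DAL5, the allantoate permease, read -4.43 and -4.44 in snf2 and -4.65 and -4.325 in swi1, a difference of 0.06. Its interval ran from -1.01 to 1.12 and allows a difference of 2-fold. That interval uses a spread shared with the rich arrays, where swi1 read 0.529 and -0.945. HSP12, a membrane-associated stress protein, read -4.07 and -4.13 in snf2, inside the range of -4.97 to -3.92 in swi1. SAG1, the alpha-agglutinin of mating, was the exception with arrays that did not overlap and is described with the mating genes.

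The 5 genes of highest mean effect rose in both mutants. BNA2, the first enzyme of NAD synthesis from tryptophan, read 1.91 and 2.30 in snf2 and 2.65 and 2.10 in swi1, which overlap; in the annotation BNA2 overlaps YJR079W, and signal of the overlapping gene cannot be told apart. RTS3 differed by 0.20 and ATG39, a receptor for autophagy of the nuclear envelope, by 0.15. THI11, of thiamine precursor synthesis, differed by -0.30 and COS12, a member of a subtelomeric family, by -0.33. Both of these genes have close relatives in the genome, so their probes may read several genes. Of these 5 genes BNA2 alone had overlapping arrays. COS12 had the smallest p of them, at 1.55 and 1.42 in snf2 against 1.93 and 1.71 in swi1, with a limma adjusted p of 0.838.

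Of the deleted genes, SNF2 went against its label under the direction used and SWI1 gave no clear reading. SNF2 (YOR290C) read 0.79 and 1.00 on the arrays labelled snf2 and -0.11 and 0.00 on those labelled swi1. Its transcript was thus higher, not lower, on the arrays labelled snf2 under the direction used, and the groups did not overlap. The difference was 0.95 ± 0.21 (limma standard error, n = 2), with an unadjusted p of 0.0025 and an adjusted p of 0.638. In experiment 1 it had the same sign, at 0.43 against 0.09, and in rich medium the difference was 1.07. Which stretch of SNF2 the probe covers was not tested, so the value checks neither the label nor the direction.

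SWI1 (YPL016W) had 2 probes that were measured on different arrays and disagreed. The first read -0.83 and -0.46 in swi1 and 0.46 on the only snf2 array that measured it. The second was missing on both swi1 arrays and read -0.74 and -1.36 in snf2. No probe was measured on all 4 arrays, so no difference is given for SWI1. In experiment 1 it read 0.45 in snf2 and 1.35 in swi1.

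None of the other subunit genes of the complex had an unadjusted p under 0.05. SWI3 and SNF5, core subunits, differed by 0.30 ± 0.23 and 0.18 ± 0.15. SNF6, SNF11 and SNF12, further subunits of the complex, differed by 0.25, 0.05 and -0.26, and SWP82 by -0.03. ARP7 and ARP9, actin-related proteins shared with the RSC remodeller, differed by -0.05 and -0.17. TAF14, which also serves in TFIID, differed by 0.00, and RTT102, shared with RSC, by 0.10. With SWI1 left out, the interval lay within 2-fold for 8 of 11 subunit genes; SNF2, SNF6 and RTT102 were those for which it did not.

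**Figure D2:**
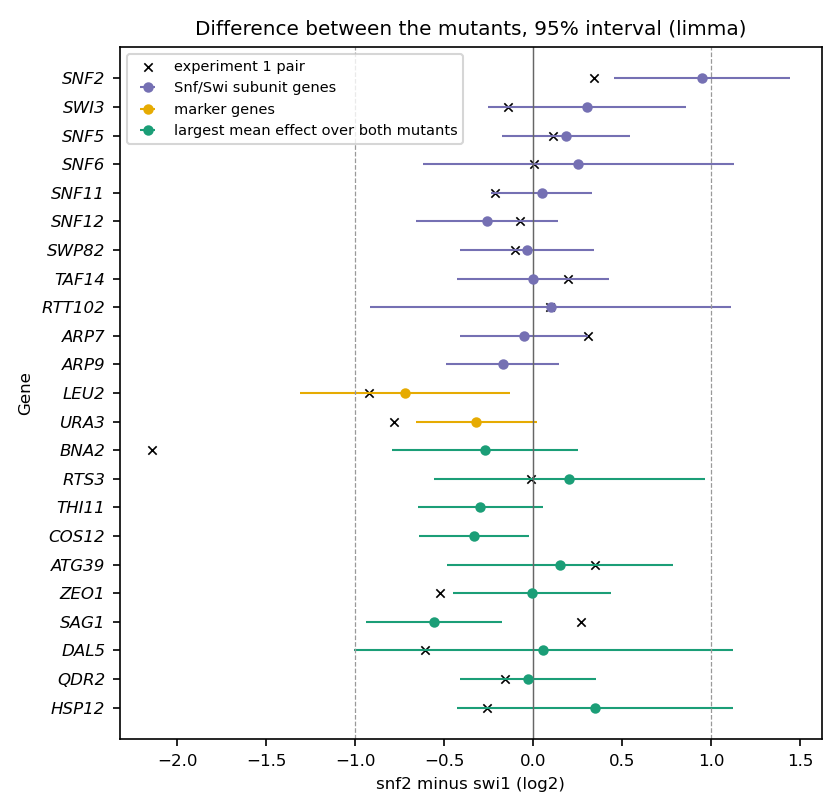
Difference between the mutants (x axis, snf2 minus swi1, log2) for subunit, marker and most strongly affected genes (y axis); dots are means over experiments 2 and 3 with limma's 95% interval, crosses are the single pair of experiment 1 and dashed lines mark 2-fold. SWI1 is not drawn. SNF2 stands at 0.95 and LEU2 at -0.72, and for most of the others the interval includes 0.

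Marker genes were read because the strains could differ by more than the named deletion. LEU2, an enzyme of leucine synthesis, read -0.62 and -0.39 in snf2 and 0.30 and 0.13 in swi1, with no overlap. The difference was -0.72 ± 0.25 (unadjusted p = 0.023, adjusted p = 0.838). Both of its probes placed snf2 below swi1 in minimal medium, as did the experiment 1 pair at -0.46 and 0.46. In rich medium the difference was -1.07, where its 2 probes disagreed on 1 snf2 array. URA3, of pyrimidine synthesis, read -0.84 and -0.92 in snf2 and -0.55 and -0.57 in swi1, a difference of -0.32 whose interval reached 0.02. HIS3, of histidine synthesis, read -0.64 and -0.83 in snf2 and -0.26 on the only swi1 array that measured it, so it was not tested. Of the 7 marker genes tested, 6 lay below 0 with a median of -0.24, against -0.02 over all genes. The part of strain differences at these loci in the other results was not tested.

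The genes of smallest p for the difference, 8 in each direction, did not pass the test, with adjusted p between 0.538 and 0.638. Among those higher in snf2 was TPO2 (YGR138C), a polyamine exporter of the plasma membrane. It read -0.99 and -0.98 in snf2 and -1.93 and -1.94 in swi1, so that the swi1 arrays lay about 1 log2 unit lower and arrays of a mutant nearly coincided. The difference was 0.95 ± 0.14 (unadjusted p = 0.000185, adjusted p = 0.538), and the experiment 1 pair stood in the same order at -0.69 and -1.59. TDA6 (YPR157W) read 0.21 and 0.06 in snf2 against -0.59 and -0.53 in swi1, with -0.07 and -1.92 in experiment 1.

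Regulators and a metabolic enzyme followed in that direction. TYE7, an activator of glycolytic genes, read -0.85 and -0.68 in snf2 and -1.65 and -1.78 in swi1, a difference of 0.95 ± 0.13 that was 0.19 in experiment 1. CDC39, the scaffold of the Ccr4-Not complex, differed by 1.01 ± 0.16 as the mean of 3 probes. These probes did not measure the same level: on swi1 replicate 2 they read -1.08, -2.89 and 0.07, though each read higher in snf2 than in swi1 of the same experiment, and experiment 1 gave a difference of 0.09. In rich medium the averaged difference of CDC39 was -0.57, but it mixes probes. 1 probe was missing on both swi1 arrays there and read -1.43 and -0.596 in snf2. Of the 2 complete probes, 1 read 0.387 and 0.285 in snf2 against 0.317 and 0.311 in swi1. The other read 0.058 and 0.04 against 0.432 and 0.387. MDH2, the cytosolic malate dehydrogenase used in gluconeogenesis, read 1.38 on both snf2 arrays and 0.62 and 0.85 on the swi1 arrays, a difference of 0.64. It was higher in snf2 in rich medium too, by 0.52 (unadjusted p = 0.0069). UTR4, of methionine salvage, differed by 0.62, and YJL218W, an uncharacterised gene, by 0.78.

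Lower in snf2 stood LRG1, which inactivates the Rho1 GTPase of cell wall signalling, with -0.82 and -0.53 in snf2 and 0.14 and 0.13 in swi1. The difference was -0.81 ± 0.15, but 1 of its 2 probes was missing on swi1 replicate 3. The 2 swi1 values thus average different probes, and their closeness, which enters the error, is not that of a single probe. The complete probe read -0.46 and -0.61 in snf2 and 0.84 and 0.13 in swi1, a difference of -1.02. MRM1 (YOR201C), which methylates mitochondrial ribosomal RNA, read -0.45 and -0.62 in snf2 and 0.10 and 0.04 in swi1. The gene lies next to HIS3 (YOR202W), the marker gene whose values are given above, and its difference was -0.60 in minimal and -0.46 in rich medium. CLB5, the S-phase cyclin, read -0.44 and -0.45 in snf2 and 0.12 and 0.10 in swi1, a difference of -0.56 that was -0.08 in experiment 1. YEN1, a Holliday junction resolvase, differed by -0.60, GIM5, a prefoldin subunit, by -0.54, and YIR042C, an uncharacterised gene, by -0.66. RPS19B, a protein of the small ribosomal subunit, differed by -0.56, with a probe missing on 1 array; the complete probe gave -0.46, and RPS19A is a near copy. AFB1, a barrier protein made by alpha cells, completes the 8 and is described with the mating genes.

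**Figure D3:**
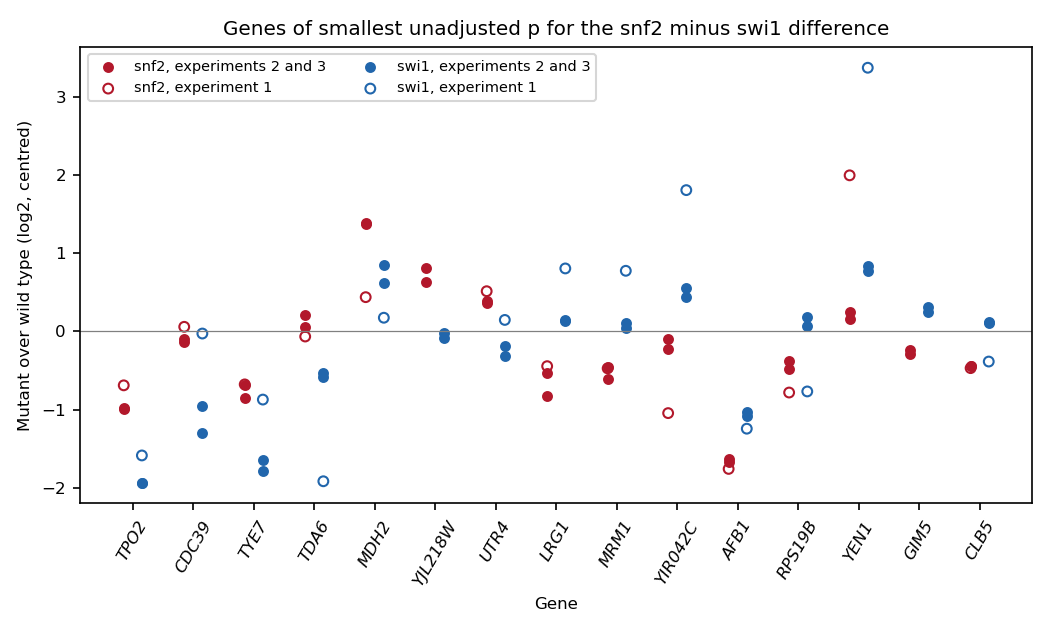
Log2 mutant over wild type (y axis) on each array in minimal medium for 15 of the 16 genes of smallest p (x axis), with experiments 2 and 3 as filled and experiment 1 as open circles. The filled circles of snf2 and swi1 do not overlap in any of the 15, which follows from choosing them by p. Where experiment 1 measured a gene on both arrays its open circles keep the order, though those of RPS19B nearly coincide.

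Experiment 1 took no part in choosing these genes and gives a check of their sign. All 14 of the 16 that it measured on both arrays had the same sign there. Some of these differences were close to 0, as for RPS19B at -0.01, CLB5 at -0.08 and CDC39 at 0.09. The median difference, turned to the sign of experiments 2 and 3, was 0.71 over these 14, and 0.65 over the 16 in experiments 2 and 3. These sizes may not share a scale, since the log base of experiment 1 is not settled. In rich medium 8 of the 16 were measured on all 4 arrays, and 3 of these had the same sign (37.5%), with a turned median of -0.11. TYE7, TDA6, LRG1, YIR042C, YEN1 and CLB5 are outside that count, since snf2 rich replicate 3 did not measure them. On snf2 rich replicate 2 each of them lay on the same side of both swi1 rich arrays as in minimal medium, some by small gaps. In experiment 1, over all genes, 2489 of 4629 (53.8%) shared the sign. Among genes at an unadjusted p under 0.05 it was 181 of 252 (71.8%), a share of 81.4% for those higher in snf2 and 65.8% for those lower. This share depended on single arrays: it was 55.5% without snf2 minimal replicate 3, 59.0% without swi1 minimal replicate 2, 63.3% without snf2 minimal replicate 2 and 66.8% without swi1 minimal replicate 3. Of the 25 genes with an absolute difference of 1 or more, 8 of the 21 measured shared the sign (38.1%).

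Those 25 genes (0.488% of all tested) were mostly placed by a single array. HEM12, an enzyme of haem synthesis, read -2.76 and 0.10 in snf2 and 0.30 and 0.28 in swi1, so that snf2 replicate 2 alone gave its difference of -1.62. YRF1-2, a subtelomeric helicase gene with near-identical copies, read -2.36 and 0.54 in snf2 and 0.96 and 0.88 in swi1. DAL80, a repressor of nitrogen genes, read -0.47 and -3.46 in snf2 against -3.54 and -3.43 in swi1. These genes were among the 18 called without snf2 minimal replicate 3, when the deviating snf2 array stood alone. UGA4, the permease for gamma-aminobutyrate, did not rest on a single array. It read -2.40 and -3.24 in snf2 and -0.80 and -1.72 in swi1, for a difference of -1.56 ± 0.43 (limma unadjusted p = 0.0099, adjusted p = 0.837). Experiment 1 gave UGA4 0.18 and 0.09. UGA4 was not alone in having arrays that did not overlap, which also holds for HEM12 and YRF1-2. The arrays of NOP6, STT4, ECM23 and CDC39 did not overlap either, with smaller unadjusted p (limma, 0.0074, 0.0079, 0.0067 and 0.00029). In experiment 1 NOP6 and STT4 differed with the opposite sign, by 0.45 and 0.18. ECM23 and CDC39 kept their sign there, at -0.86 and 0.09, and the probes of CDC39 disagreed in level as described above.

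The mating genes of alpha cells were the group that stood furthest from 0. These genes encode the alpha pheromone, an agglutinin, a barrier protein and the receptor for the opposite pheromone. All 5 measured members were below wild type in both mutants and lower in snf2, with non-overlapping arrays in 5 of 5, against 21.9% of all genes that did not overlap in this direction and 15.0% in the other. None was called, and 4 of 5 had an unadjusted p under 0.05. AFB1 read -1.63 and -1.67 in snf2 and -1.04 and -1.09 in swi1, a difference of -0.58 ± 0.12 (adjusted p = 0.638). SAG1 read -4.81 and -4.70 against -4.01 and -4.39, a difference of -0.56 ± 0.16.

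The pheromone genes and the receptor lay on the same side. MF(ALPHA)2 read -4.06 and -4.15 in snf2 and -3.33 and -3.72 in swi1. STE3, the receptor for a-factor, read -2.87 and -2.71 against -2.31 and -2.47. MF(ALPHA)1 read -2.19 and -2.13 against -1.36 and -2.10, where the gap on replicate 3 was small. The list had a median difference of -0.56, against -0.02 over all genes tested, and of -0.42 over the 4 members in experiment 1. SAG1 had the opposite sign in experiment 1, at -4.93 in snf2 and -5.20 in swi1. In rich medium the order was not kept, with a median of 0.19 over 4 members; the minimal minus rich change of the difference was -0.73 for AFB1 and -0.97 for SAG1, each with an adjusted p of 0.837.

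**Figure D4:**
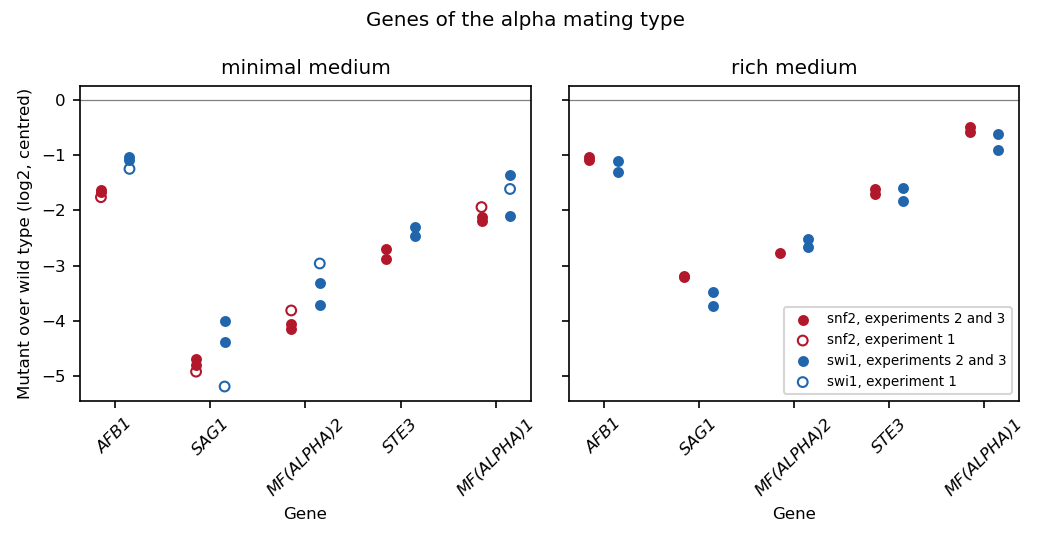
Log2 mutant over wild type (y axis) of 5 genes of the alpha mating type (x axis) on each array in minimal (left) and rich (right) medium, with experiment 1 shown for minimal medium only. In minimal medium the filled snf2 points lie below the filled swi1 points for each gene, and in rich medium the order is not kept.

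Genes of the other mating type and of haploid cells did not follow as a group. The a-specific genes had a median of -0.14 over 5 members. BAR1, the protease that degrades alpha-factor, was the 1 with an unadjusted p under 0.05, at 0.18 and 0.21 in snf2 and 0.56 and 0.88 in swi1. Among 19 haploid-specific and pheromone response genes 13 lay below 0 with a median of -0.12. FAR1, which arrests the cell cycle in response to pheromone, read -1.59 and -1.54 in snf2 and -1.12 and -1.19 in swi1, but -1.51 and -1.53 in experiment 1.

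Most genes of protein synthesis lay below 0, by small differences that did not pass the test; over all genes 2817 of 5123 lay below 0. Of 130 cytoplasmic ribosomal protein genes 101 lay below 0 with a median difference of -0.12. RPS19B, RPL28, RPS3 and RPS2, 4 of the 130, had an unadjusted p under 0.05 and were lower in snf2. Over all genes 170 of 5123 (3.32%) were lower at this threshold, which is no smaller a share. The medians of the ribosomal protein genes by array were -0.64 and -0.73 in snf2 and -0.55 on both swi1 arrays. Ribosome biogenesis genes lay below 0 in 27 of 36 with a median of -0.11, and NOP56, a core protein of box C/D particles, read -0.72 and -0.88 in snf2 against -0.40 and -0.39 in swi1. Translation factors lay below 0 in 27 of 32 with a median of -0.14, and mitochondrial ribosomal proteins in 42 of 60 with -0.08. In experiment 1 the medians were -0.02, 0.15, -0.03 and -0.24 in the same order, beside 0.01 over all genes. No member of these groups was called. At a limma unadjusted p under 0.05, 5 of 36 ribosome biogenesis genes, 1 of 32 translation factors and 2 of 60 mitochondrial ribosomal proteins were lower in snf2. In the same order of the groups, arrays did not overlap with snf2 below for 52, 14, 11 and 17 members, against 21.9% of all genes. With snf2 above they did not overlap for 9, 3, 1 and 4, against 15.0% of all genes.

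The other groups lay close to 0 in experiments 2 and 3. Over the 41 gene lists described, the medians ran from -0.56 to 0.14; 26 of them lay within 0.1 of 0 and 39 within 0.2, and no list had a called member. The 2 outside were the alpha-specific and the marker genes. Histone genes, with median effects against wild type of -0.72 in snf2 and -0.73 in swi1, differed by a median of 0.03 with 6 of 11 above 0. In experiment 1 all 11 were higher in snf2, by 0.19 to 0.69 with a median of 0.45, which was the highest of the 41 lists there. Genes reported to need Snf/Swi differed by -0.04 over 18 members. PHO84 among them, the high-affinity phosphate transporter, read -0.97 and -0.93 in snf2 and -0.53 and -0.30 in swi1, but -2.65 and 0.91 in experiment 1. Nitrogen catabolite repressed genes had a median of 0.06 with members in both directions: besides UGA4, GAP1, the general amino acid permease, read -1.50 and -1.65 in snf2 and -2.09 and -2.003 in swi1. Proteasome subunits had a median of 0.03, while RPN4, the activator of proteasome genes, read 0.99 and 0.59 in snf2 and 0.22 and 0.09 in swi1. Among 24 ergosterol genes HMG1, the reductase at the start of sterol synthesis, read -1.04 and -0.63 against -0.12 and 0.06, but -0.17 and -0.16 in experiment 1.

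**Figure D5:**
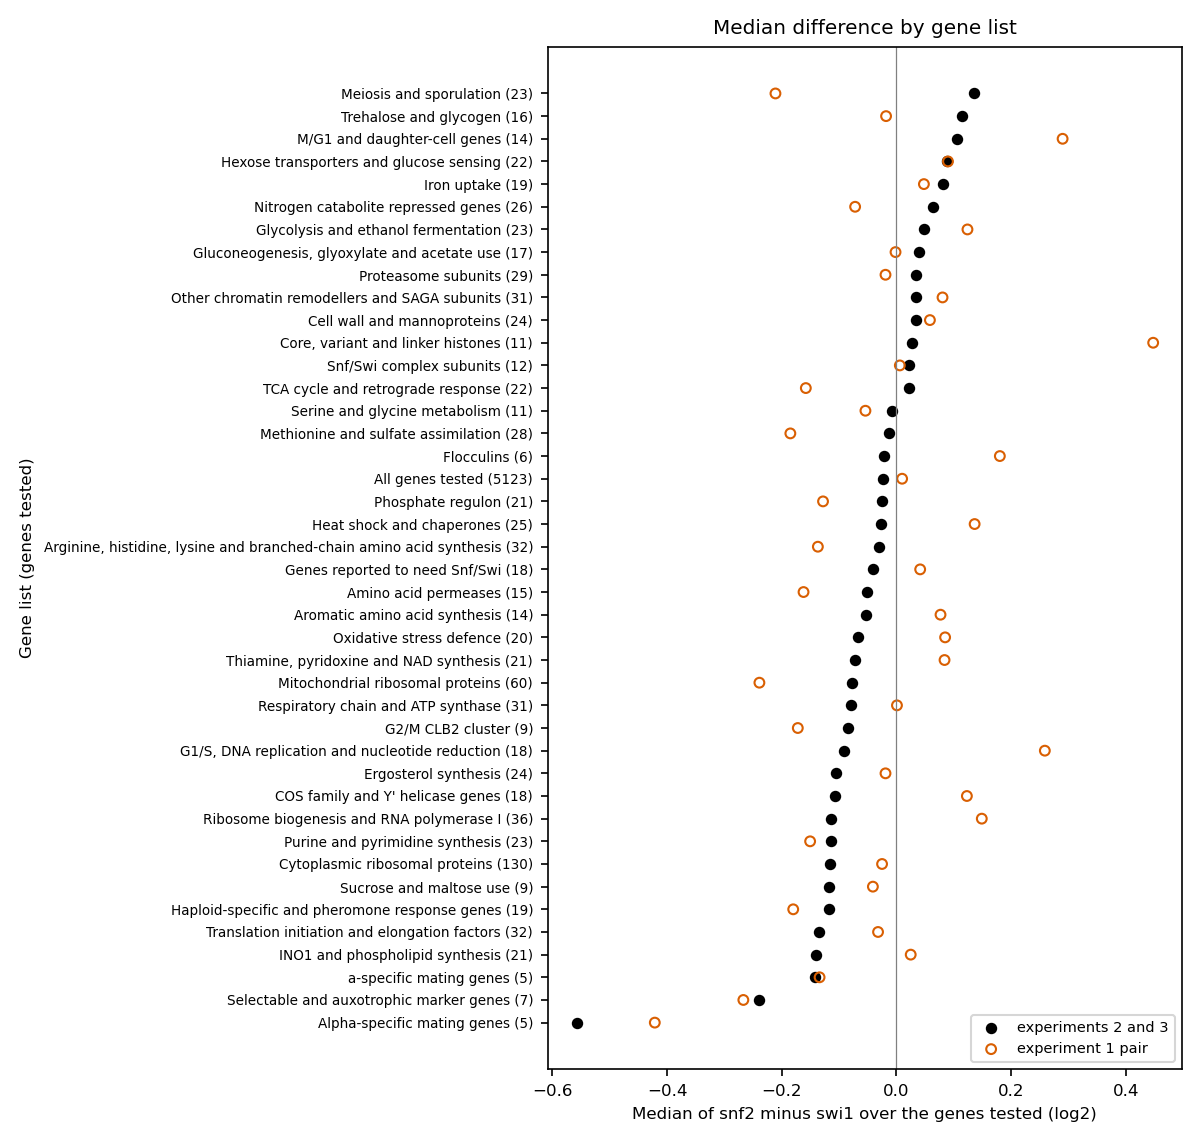
Median of snf2 minus swi1 (x axis, log2) over the tested members of each gene list (y axis, number tested in brackets), for experiments 2 and 3 (filled) and the experiment 1 pair (open). Most filled points lie within 0.2 of 0, and the alpha-specific genes stand at -0.56.

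Medians by position in the genome lay close to 0. The median difference per chromosome ran from -0.04 to 0.03. Over 265 tested genes among the outermost 10 of each chromosome end, whose effects against wild type had medians of 0.32 in snf2 and 0.28 in swi1, the median difference was -0.04.

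In rich medium the same contrast gave 1 called gene of 3397 (0.0294%); on snf2 rich replicate 3, 40.0% of probes were missing. TSL1, the large subunit of trehalose synthase, read 2.06 and 2.12 in snf2 and 0.43 and 0.23 in swi1 there, a difference of 1.76 ± 0.14 (limma adjusted p = 0.00861). In minimal medium TSL1 read 0.81 and 1.02 against 0.60 and 0.70, a difference of 0.27 with an adjusted p of 0.844. The count in rich medium was unstable, at 0 without either swi1 minimal array and at 55, 7, 66 and 37 without swi1 rich replicate 2, swi1 rich replicate 3, snf2 rich replicate 2 and snf2 rich replicate 3. The minimal minus rich change of the difference was called for 0 of 3207 genes (0.0%), with 123 at an unadjusted p under 0.05 and a smallest adjusted p of 0.169. Leaving out single arrays moved that count to between 0 and 44, the highest without snf2 rich replicate 2. TPO2 was among the genes of smallest p for this change at 1.37, with a difference of 0.95 in minimal medium and of -0.42 in rich medium.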

How the data were processed

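The authors deposited 1 log ratio of the 2 channels per probe, from images read with ScanAlyze (version 2.24 for experiments 2 and 3), per the labels. The deposited values were taken as log2, from the values themselves for experiments 2 and 3 and by assumption for experiment 1; the labels name no normalisation, dyes, numerator or signal over background. The deposited column medians ran from -0.13 to -0.03; their scaling, centring and direction stay unknown. On the 8 arrays of experiments 2 and 3, 13.3% to 17.3% of values were, rounded to 3 decimals, the base-2 logarithm of 1 whole number up to 20 over another, and 6.26% to 6.73% when the same grid was moved aside; the excess was smaller for natural and base-10 logarithms, and absent or slight in experiment 1.

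Signs were turned, arrays centred on the median gene, and probes of a gene averaged over those an array measured: 6956 of 8832 probes named 5574 genes, and the experiment 1 table named 5516 of 6384. Names came from the platform table, and locus tags and neighbours from RefSeq R64. limma 3.58.1 (R 4.3.3) was fitted to 8 arrays with a mean per group, for genes present on both arrays in all groups compared, two-sided, with Benjamini-Hochberg adjustment over all genes tested. It was tested on simulated data. Since no build is named in the files, the outermost 10 genes replaced a distance to chromosome ends.

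Members and lists were chosen with earlier results of these data known. Named genes were those of smallest p, 8 each way (no gene was called), subunit and marker genes, and the 5 highest and lowest mean effects; mating genes were listed as strain markers. List members and genes of large difference named beside these, and SER3, were chosen after their values were seen. Lists and alternatives were described by counts and medians only. Same-numbered arrays did not deviate together (r = -0.005 over 5123 genes in minimal and 0.02 over 3397 in rich medium, across genes), so numbers were not taken as pairs. 1 of the 16 genes of smallest p is not reported here. No sequences or coordinates were used.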

Additional observations from a re-analysis of the deposited data

Results flagged for a closer look

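TSL1 drew attention because the mutants differed in rich medium by a test of the difference itself: 1.76 on the log2 scale, higher on both snf2 arrays than on both swi1 arrays (limma adjusted p = 0.00861). The minimal minus rich change of this difference was -1.49, with an adjusted p of 0.169.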

How the results depend on the processing

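With centring, scaling, filters, probe handling, the prior, the arrays fitted and the replicate block changed 1 at a time, the number of genes called between the mutants in minimal medium stayed at 0; leaving out single arrays gave 0 to 18 (1, MER1, without swi1 minimal replicate 2, and 18 without snf2 minimal replicate 3, all at 2-fold or more). In rich medium the 1 call became 2 without centring, with genes measured on all 8 arrays or with a robust prior, 18 with genes on at least 1 array per group, 0 with the replicate block, and 0 to 66 with single arrays left out. The minimal minus rich count of 0 became 4 with at least 1 array per group and 0 to 44 with single arrays left out. The share of genes with intervals within 2-fold, 90.8%, was 89.7% with arrays scaled to equal spread, 89.3% after quantile normalisation, 94.2% with the 4 minimal arrays alone, 95.2% with the replicate block, 92.4% with experiment 1 added under a replicate block and also with genes on all 8 arrays, 89.6% per probe, 88.9% with at least 1 array per group and 81.1% to 84.6% with single arrays left out. Same-sign shares in experiment 1, over genes at an unadjusted p under 0.05, a set chosen after seeing the data because the planned share of called genes has no value with 0 called, ran from 55.5% to 66.8% without single arrays and were 67.4% with the replicate block. Over 568 values of named genes, 22 turned sign within an error of 0, and HSP12, at 0.35, ran from -0.18 without swi1 minimal replicate 2 to 0.87 without swi1 minimal replicate 3; the cause of these changes was not tested. The adjusted p of TPO2 ranged from 0.181 to 0.848. The median of the alpha-specific genes stayed between -0.75 and -0.37. Averaging only complete probes was added after seeing the data. The precision is limited by 2 arrays per group; dim spots could not be filtered, since signal over background is not given.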

Other observations

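SER3, the first enzyme of serine synthesis, was higher than wild type in both mutants in minimal medium, at 1.66 and 1.37 in snf2 and 1.34 and 1.69 in swi1, a difference of 0.00 with a 95% interval from -0.39 to 0.39. In rich medium SER3 read 3.87 and 3.72 in snf2 and 2.36 and 2.33 in swi1, a difference of 1.45 (limma adjusted p = 0.0586), and the minimal minus rich change of the difference had an adjusted p of 0.268.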
